A study of Caenorhabditis elegans with 2 samples.

Results

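Intergenic binding of MDT-29, away from genes, annotated gene starts and small RNA genes, made up 465 of the 1705 peaks (27.3%, exact Clopper-Pearson 95% interval 25.2 to 29.5%) that chromatin immunoprecipitation followed by sequencing (ChIP-seq) gave in whole Caenorhabditis elegans larvae. A peak counted as intergenic when its summit, the base of strongest enrichment, lay outside every protein-coding gene, more than 500 bp from the 5' end of every protein-coding transcript and more than 250 bp from any tRNA, snRNA or snoRNA gene. Of the 465 peaks, 255 had their summit within 2000 bp of the nearest 5' end and are called near, and 210 had it farther away and are called far. The other peaks away from small RNA genes lay at promoters (560, summit within 500 bp of a 5' end) or in gene bodies (327), and 353 peaks lay within 250 bp of a small RNA gene. Both samples, replicates 1 and 2 of a single group, were L4 larvae at 48 hours of age of strain RJP4521, in which CRISPR had inserted a Degron::GFP tag at the mdt-29 gene, allele rp133. The larvae had been synchronised by bleaching and starvation at L1, chromatin was sheared by sonication, and tagged MDT-29 was precipitated with an antibody against GFP. The tag sits at the gene's own locus, the strain is a single line, and whole animals mix all tissues. No untagged strain and no input sample was used here.

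Mediator is the large coactivator complex that passes signals from transcription factors bound at enhancers and promoters to RNA polymerase II, and MDT-29 is one of its subunits. Regulatory DNA in the compact worm genome lies mostly close to gene starts, but elements farther away are also known. Many worm transcripts are trans-spliced to a leader RNA, which removes their original 5' end, so an annotated 5' end can lie downstream of the place where transcription starts.

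The strongest intergenic peaks fell into sites that shared sequence with other peaks and sites that did not. Summit windows of 100 bases that had 20 bases in common with another peak were joined into families, lettered A to F by their number of intergenic members. These families were seen only after the peaks had been examined. Families A and C are shown first, since every intergenic member of both (13 of 13 and 6 of 6) held the letters GAANNTTC, a pair of facing GAA units of the kind that the heat shock factor HSF-1 binds. Capitals mark GAANNTTC on either strand, which may overlap or repeat. Each window carries the name of the gene whose 5' end is nearest and is read from genome build ce11 (RefSeq, WBcel235).
family A, nearest srv-14, chrIV:15896028-15896127, plus strand: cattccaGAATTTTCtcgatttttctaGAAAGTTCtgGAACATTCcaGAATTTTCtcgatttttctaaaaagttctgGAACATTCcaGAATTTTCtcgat
family A, nearest fbxa-190, chrX:1375200-1375299, plus strand: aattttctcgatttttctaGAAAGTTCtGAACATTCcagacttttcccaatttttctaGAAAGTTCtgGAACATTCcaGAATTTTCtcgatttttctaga
family C, nearest K07D4.2, chrII:4048026-4048125, plus strand: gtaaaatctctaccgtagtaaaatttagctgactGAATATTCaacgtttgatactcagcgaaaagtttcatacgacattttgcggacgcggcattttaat
family C, nearest C46C2.7, chrIV:9196386-9196485, minus strand: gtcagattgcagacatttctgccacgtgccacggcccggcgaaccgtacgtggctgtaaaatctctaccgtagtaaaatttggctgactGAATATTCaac

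Families B, D and F carried other sequences. In family B the capitals mark GGCNNAGTG, searched on both strands as the core of the A box, part of the promoter inside tRNA genes. This motif was added to the search after the sequences had been seen. In families D and F the capitals mark the 20 bases that most members share.
family B, nearest nhr-277, chrIV:2740187-2740286, plus strand: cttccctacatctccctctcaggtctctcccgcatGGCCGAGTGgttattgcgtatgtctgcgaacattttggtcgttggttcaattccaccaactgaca
family B, nearest sor-3, chrX:351566-351665, minus strand: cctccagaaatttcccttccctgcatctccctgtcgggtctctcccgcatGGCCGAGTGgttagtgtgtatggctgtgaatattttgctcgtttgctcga
family D, nearest T02H6.3, chrII:695198-695297, plus strand: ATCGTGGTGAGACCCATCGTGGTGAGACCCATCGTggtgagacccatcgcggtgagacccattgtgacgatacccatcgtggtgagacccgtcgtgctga
family F, nearest K08F11.1, chrIV:4727992-4728091, plus strand: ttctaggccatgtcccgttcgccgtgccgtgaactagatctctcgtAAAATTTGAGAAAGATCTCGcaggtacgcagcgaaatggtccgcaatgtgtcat

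Among strong peaks that shared no 20 bases with another peak, 4 are shown for the motifs at their summits. Capitals mark matches on either strand to any of 16 motifs searched. They fall on GAANNTTC and TATAAA in the first window. In the second they fall on GAANNTTC and on CTTATC and TGATAA, which overlap in part and are forms of the GATA factor site. They fall on CACGTG, the E box of basic helix-loop-helix factors, in the third, and on the 9-base element CTGCGTCTC and GAANNTTC in the fourth.
C30E1.4, chrX:16929801-16929900, plus strand: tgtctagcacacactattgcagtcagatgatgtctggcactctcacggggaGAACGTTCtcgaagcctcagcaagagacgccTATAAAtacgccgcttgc
F19B2.5, chrV:20164664-20164763, plus strand: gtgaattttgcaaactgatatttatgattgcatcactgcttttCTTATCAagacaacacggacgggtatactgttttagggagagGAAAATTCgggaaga
aakg-3, chrX:2971583-2971682, plus strand: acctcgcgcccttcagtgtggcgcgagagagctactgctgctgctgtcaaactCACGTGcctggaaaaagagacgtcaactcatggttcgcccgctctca
Y17G7B.17, chrII:12102539-12102638, plus strand: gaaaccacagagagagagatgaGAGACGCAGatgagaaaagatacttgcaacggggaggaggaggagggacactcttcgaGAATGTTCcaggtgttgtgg

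Intergenic peaks were stronger than those in gene bodies, and their difference from promoter peaks did not pass the test. The signal is the authors' value for the strength of a peak, in units whose scale between samples is unknown. Its median was 101.1 over the 465 intergenic peaks (quartiles 82.5 and 142.0, highest 1196), 99.8 over near and 104.8 over far peaks. At promoters the median was 97.9 and in gene bodies 89.8. A signal above the median of all 1705 peaks was seen in 51.6% of intergenic, 47.5% of promoter and 39.1% of gene-body peaks. By two-sided Fisher's exact tests, with Benjamini-Hochberg adjustment over 12 tests (3 comparisons by 4 outcomes), the odds of such a signal were 1.66 times those in gene bodies (95% interval 1.23 to 2.23, adjusted p of the exact test, here called exact adjusted p = 0.00199). Against promoters the odds ratio was 1.18 (0.915 to 1.52, exact adjusted p = 0.314). Far against near peaks gave 1.13 (0.774 to 1.66, exact adjusted p = 0.551). These tests count peaks of a single experiment, so the p-values say nothing of variation between worms. Of the 100 strongest peaks in the whole list, 38 were intergenic (25 far and 13 near), 43 lay at promoters and 9 in gene bodies.

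Each sample also has a thresholded list of its own, and a main-list peak with an overlap of 1 bp or more in that list was called found in that sample. This held in both samples for 167 of 465 intergenic peaks (35.9%, 95% interval 31.5 to 40.5%), against 32.3% of all main peaks. In replicate 1 alone or together with replicate 2 the number was 210, and in replicate 2 it was 268. Neither sample alone gave a peak at 154 of 465 (33.1%), against 33.9% of all main peaks. Intergenic peaks were found in both samples more often than gene-body peaks (82 of 327, 25.1%, odds ratio 1.67, 95% interval 1.21 to 2.32, exact adjusted p = 0.00339). They did not pass the threshold against promoter peaks (187 of 560, 33.4%, odds ratio 1.12, 0.856 to 1.46, exact adjusted p = 0.551). Far peaks (84 of 210, 40.0%) against near peaks (83 of 255, 32.5%) gave an odds ratio of 1.38 (0.927 to 2.06, exact adjusted p = 0.171). With only peaks of a global irreproducible discovery rate (IDR, which is low where a peak keeps its rank from list to list) of 0.001 or less, the ratio to gene-body peaks was 1.16 for being found in both samples (exact adjusted p = 0.782) and 1.42 for signal (exact adjusted p = 0.305).

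Being found in both samples went with strength. In the strongest quartile, with a signal of 144.1 or more, 110 of 116 intergenic peaks (94.8%, 95% interval 89.1 to 98.1%) were found in both, among them 61 of 61 far and 49 of 55 near peaks. In the next quartile the share was 46 of 116 (39.7%), and below a signal of 101.2 it was 3 of 116 (2.59%) and then 8 of 117 (6.84%). The 6 strong near peaks not found in both lay nearest idh-1, F09F7.6, hif-1, let-607, lgg-1 and hsp-16.48, and were named after their values were seen. The peak nearest hif-1, the hypoxia-inducible transcription factor, had a signal of 148.6, with 84.8 in replicate 1 and 60.5 in replicate 2, and was in neither sample's thresholded list.

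**Figure D1:**
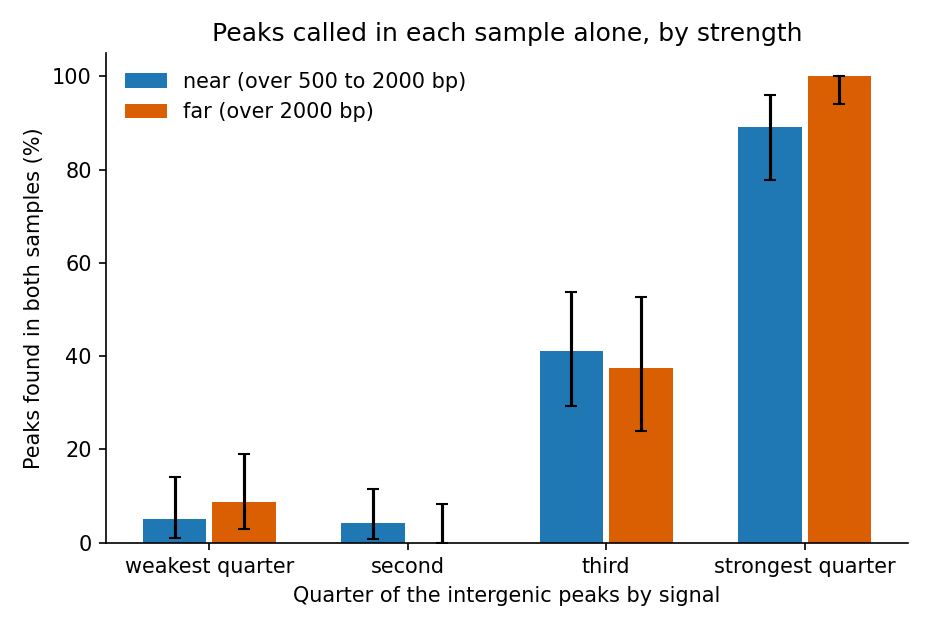
Share of intergenic peaks found in both samples (vertical axis, %), by quartile of signal (horizontal axis), for near and far peaks; bars are shares and whiskers exact 95% Clopper-Pearson intervals. The share is 100% for far and 89.1% for near peaks in the strongest quartile and at most 8.62% in the 2 weakest quartiles.

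Signal in the 2 samples could be read for 462 of the 465 peaks. Across them the Spearman correlation was 0.605 (near 0.521, far 0.695), given as a description, since the peaks share libraries and were selected. Replicate 2 was higher at 345 of 462 peaks, with a median ratio of 1.24 to replicate 1, which includes any difference in scale. The pair of lists whose ranks made the main list was mostly not the samples' own, since 4060 of 86189 positions in the first and 4013 of 86009 in the other were those of a peak in replicate 1, and 0 those of one in replicate 2.

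**Figure D2:**
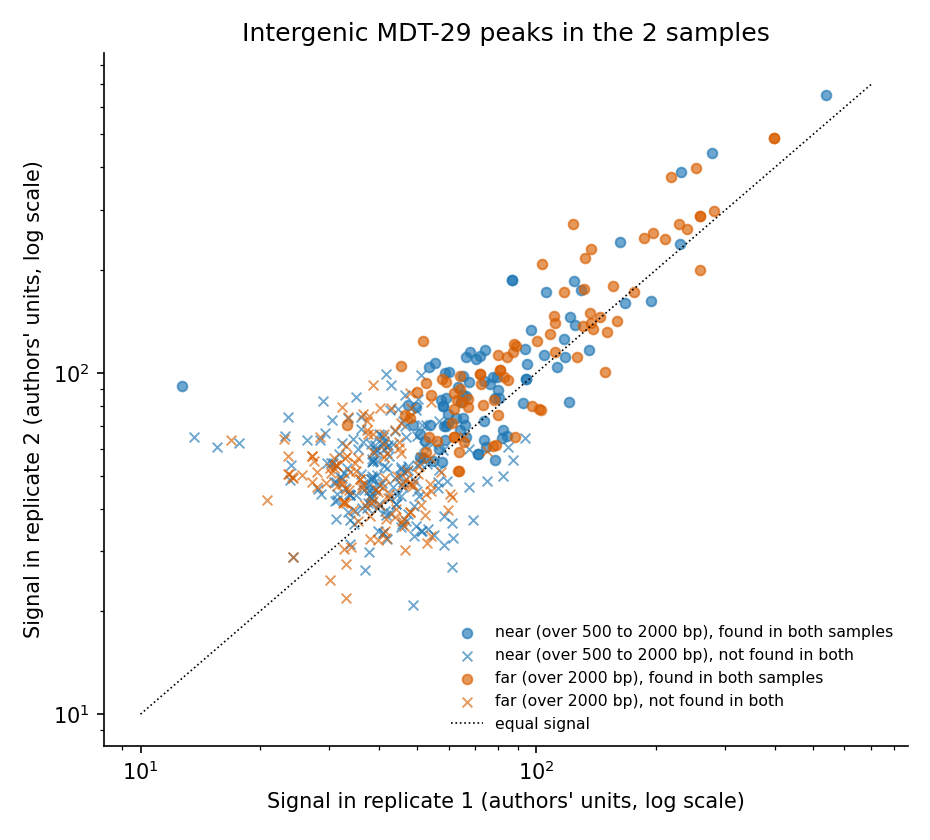
Signal of each intergenic peak in replicate 1 (horizontal axis) and replicate 2 (vertical axis), both in the authors' units on log scales; circles are peaks found in both samples, crosses are the others, and the dotted line marks equal signal. Peaks that are strong in replicate 1 are strong in replicate 2, and 345 of 462 peaks lie above the line.

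The strongest near peak of all lay 549 bp from the 5' end of F19B2.5 on chromosome V, at chrV:20164318-20164928, between that gene and the chemoreceptor gene srw-39. Its signal was 1196, with 538 in replicate 1 and 651 in replicate 2 (594 ± 80.1, mean ± SD, n = 2), the third highest of the main list. Next came the family A peak nearest srv-14, another chemoreceptor gene, at 721 (278 and 440), and the family A peak nearest Y41E3.13 at 624 (232 and 387). Replicate 2 was the higher sample at each of them. The peak 875 bp upstream of cbp-1, which encodes the histone acetyltransferase CBP/p300, another coactivator, had a signal of 331 (167 and 160). The remaining 6 of the 10 strongest near peaks, nearest rpa-2, tag-340, C46C2.7, F20B6.9, ipla-6 and F55G7.5, ranged from 284 to 478, and all 10 were found in both samples.

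Among far peaks the highest signal, 918, was at chrX:16929602-16930419, which lay 1688 bp beyond C30E1.4 and 22193 bp before F52G3.8. It reached 397 in replicate 1 and 487 in replicate 2 (442 ± 63.4, mean ± SD, n = 2). The peak nearest cmd-1, the calmodulin gene, had its summit inside the lincRNA linc-128, 4758 bp from the cmd-1 5' end, at a signal of 590 (281 and 298). The peak between gbb-1, a GABA-B receptor subunit gene, and aakg-3, which encodes a gamma subunit of AMP-activated kinase, stood at 564 (260 and 288). Both differed little between the samples. The other 12 of the 15 strongest far peaks, nearest fbxa-190, Y105E8B.9, Y37A1B.7, K08F11.1, F09E10.1, tgt-1, Y17G7B.17, K07D4.2, VY10G11R.1, Y102A11A.1, F22B7.9 and Y116A8A.150, ranged from 356 to 646. All 15 were found in both samples. Outside these, the peak 4910 bp from xol-1, the switch gene of sex determination, had a signal of 266 (131 and 138).

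Far intergenic peaks lay on the X chromosome more often than near ones. The X held 73 of 210 far peaks (34.8%, 95% interval 28.3 to 41.6%) and 55 of 255 near peaks (21.6%, 16.7 to 27.1%), against 20.4% of all main peaks. The odds of lying on the X were 1.93 times higher for far than for near peaks (95% interval 1.26 to 2.99, exact adjusted p = 0.00348). Over all intergenic peaks the share was 27.5%, against 12.1% of promoter peaks (68 of 560, odds ratio 2.75, 1.96 to 3.86, exact adjusted p = 6.58e-09) and 16.5% of gene-body peaks (54 of 327, odds ratio 1.92, 1.33 to 2.80, exact adjusted p = 0.00121). The difference between far and near no longer passed in the list of replicate 1 alone (odds ratio 1.78, exact adjusted p = 0.180) or at a global IDR of 0.001 (2.11, exact adjusted p = 0.0985). The comparison with gene bodies did not pass there either (1.55, exact adjusted p = 0.180, and 1.78, exact adjusted p = 0.220).

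Each kind of sequence has its own share on the X, which moves with these differences. The X holds 22.2% of the bases where a summit would count as intergenic, 14.4% of those that would count as promoter and 16.3% of those in gene bodies. For near peaks the shares were close, with 21.6% of peaks on 20.6% of near sequence, or 20.2 peaks per Mb on the X against 19.04 on the autosomes. For far peaks they were farther apart, with 34.8% of peaks on 23.5% of far sequence, or 18.9 per Mb on the X against 10.9 on the autosomes. Among single autosomes, far density lay between 9.03 per Mb on V and 13.3 on II. Near density varied more, from 12.4 per Mb on V to 29.4 on III. These densities are given with no test. Of the far peaks on the X, 8 belonged to a single cluster next to C30E1.4 and 4 to a cluster at W05H9.4. Clusters at cutl-21, at gbb-1 and aakg-3, and around mdl-1 held 3 far peaks each, and the cluster around mxl-3 held 1. On the autosomes no cluster of 3 or more members held more than the 4 far peaks at gcy-3. The tests count neighbouring peaks singly, and the X shares were not taken again with each cluster counted once.

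**Figure D3:**
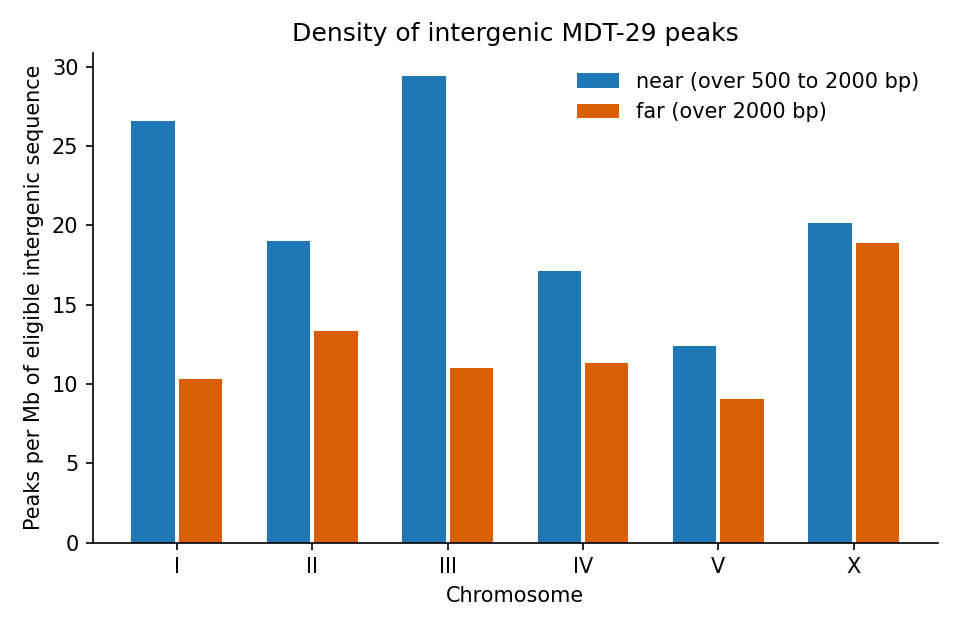
Peaks per Mb of eligible intergenic sequence (vertical axis) on each chromosome (horizontal axis), for near and far peaks; each bar is a single count divided by sequence length, with no replicate. For far peaks the X, at 18.9, stands above every autosome, while for near peaks III, at 29.4, is highest.

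Most nearest genes of intergenic peaks had no promoter peak of their own. Of the 19973 protein-coding genes, 708 (3.54%) had a main-list peak within 500 bp of a 5' end. The gene with the nearest 5' end was one of these for 41 of 255 near peaks (16.1%, 95% interval 11.8 to 21.2%) and 25 of 210 far peaks (11.9%, 7.85 to 17.1%), shares set beside that of all genes with no test. At least 1 flanking gene was one for 58 near and 42 far peaks. Near peaks lay upstream of the nearest 5' end in 192 of 255 cases (75.3%), far peaks in 118 of 210 (56.2%). The rule leaves out summits inside genes, so a position downstream of a 5' end counts only outside the gene. This favours upstream positions, and no share of eligible sequence was set beside these values.

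Intergenic peaks lay between genes of every layout. Between divergent genes, where both flanking genes start toward the gap, lay 21.0% of far peaks (44 of 210), against 29.6% of far sequence. Convergent genes, whose 3' ends face the gap, flanked 21.9% of far peaks (46 of 210), against 17.1% of sequence. For near peaks the shares were 29.4% divergent, against 35.2% of near sequence, and 13.3% convergent, against 9.58%. On both sides of the 2000 bp split, divergent gaps held a smaller share of peaks than of sequence and convergent gaps a larger one, with no test. Only for far divergent peaks did the exact interval (15.7 to 27.1%) leave out the share of sequence. The intervals for near divergent (23.9 to 35.4%), near convergent (9.41 to 18.1%) and far convergent peaks (16.5 to 28.1%) included it. The chromosome arms, taken as the outer 50% of each chromosome, held 57.6% of far and 46.7% of near peaks, against 56.0% and 49.6% of sequence.

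Most summits had no annotated gene of any kind within 250 bp, namely 206 of 255 near (80.8%) and 154 of 210 far peaks (73.3%). A gene of the annotation class ncRNA held the summit of 23 near and 23 far peaks. Long intergenic noncoding RNA genes held 7 far summits (3.33%, 95% interval 1.35 to 6.75%) and 2 near summits (0.784%, 0.0951 to 2.80%). Pseudogenes held 4 far and 1 near. The share of eligible sequence inside genes of these classes was not computed, so the counts do not show whether peaks favour them or whether far and near peaks differ.

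Named gene families took differing shares of the genes next to intergenic peaks. Together the 465 peaks had 390 different nearest genes, 1.95% of protein-coding genes, and 13 lists of genes picked by symbol were set beside that share, with no test. A list picked this way leaves out members of a family that carry other names. Nuclear hormone receptors (symbols in nhr) were nearest in 9 of 269 cases (3.35%), among them nhr-88 at 302 (145 and 146 in the samples) and nhr-247, whose peak belongs to family A, at 176 (79.9 and 89.2). Also above 1.95% were genes named zip or hlh, which encode bZIP and bHLH transcription factors, with 3 of 37 (8.11%), insulin-like peptide genes with 3 of 38 (7.89%), chaperone genes named hsp, dnj, cct or cyn with 3 of 75 (4%), and ribosomal protein genes with 3 of 78 (3.85%). Each of these 4 rests on 3 genes. Below it were chemoreceptor genes, one of the largest families of the genome, with 6 of 1302 (0.461%), F-box genes with 3 of 322 (0.932%), collagens with 2 of 166 (1.20%) and neuropeptide genes with 1 of 102 (0.980%). None was nearest among 81 listed homeobox genes, 240 genes named clec (C-type lectins), 72 named his (histones) and 35 listed factor genes, most of them named elt (GATA factors), ztf or klf (zinc finger factors).

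Other transcription factor genes, named here after their values were seen and outside those lists, were nearest as well. Besides hif-1, mdl-1 and mxl-3, examples among bZIP and bHLH factors were atfs-1, of the mitochondrial stress response, at 181 (72.6 and 93.1), and fos-1 at 174 (103 and 78.1). Others were mml-1, a Myc-like factor, at 204 (74.0 and 116), and xbp-1, of the endoplasmic reticulum stress response, at 100.6 (47.4 and 51.9). Examples among zinc finger factors were egrh-2 at 155 (57.4 and 83.3), fezf-1, whose peak belongs to family A, at 125 (49.7 and 79.5), and sma-9 at 114 (37.9 and 74.7). At atfs-1, fos-1, mml-1, egrh-2 and fezf-1 the peak was found in both samples.

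The 3 peaks at listed chaperone genes lay nearest hsp-16.48, a small heat shock protein gene, at 144.1 (44.7 and 78.6), cyn-2, a cyclophilin, at 136 (64.2 and 68.3), and hsp-25 at 101.1 (45.5 and 58.4). The windows at cyn-2 and hsp-25 held GAANNTTC, and the window at hsp-16.48 held TGATAA. Outside the list, far peaks lay beyond the 3' ends of the neighbouring Hsp70 genes F44E5.4, at 104.8 (38.6 and 66.2), and F44E5.5, at 114 (40.2 and 78.9). Both of these genes also had a promoter peak, both far peaks were found in replicate 2 only, and neither window held GAANNTTC.

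Intergenic peaks lay in groups at some genes. When members within 5000 bp of each other were chained, 160 of 465 formed 65 clusters, of which 15 had 3 or more members. With a distance of 2000 bp it was 127, and with 10000 bp it was 188. Some members are extra summits of the same stretch of enrichment, since the 465 peaks lie on 445 stretches of overlapping main-list peaks, and 24 of them are not the highest summit of their stretch. Those 24 had a median signal of 18.7, and all 8 members with a signal under 10 were among them. A sample's value at such a summit is that of the strongest overlapping peak.

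The largest cluster, at chrX:16929602-16934469 next to C30E1.4, had 8 far members on 4 stretches, with signals from 16.8 to 918, and 7 were found in both samples. Of its 8 summits 7 lay in the ncRNA gene C30E1.9. Next in size were 6 members around mdl-1, a gene for a Mad-like partner of Max, on the X, with signals of 26.2 to 148 and 4 found in both. Around mxl-3, a Max-like gene also on the X, lay 3 members with signals from 83.3 to 135, and 2 were found in both. At W09D10.4 on III, 5 members ranged from 28.4 to 129 and none was found in both.

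At the fatty acid desaturase genes fat-1 and fat-2, which lie next to each other on IV, 4 members on 3 stretches were seen, and 3 of 4 were found in both samples. The strongest lay between the genes, 1224 bp before the 5' end of fat-2, at 213 (93.4 and 117 in the samples), and the next in the same gap, 65 bp beyond fat-1, at 181 (80.9 and 102). Between lpin-1, the lipin phosphatase gene, and letm-1, 4 members reached 316 (132 and 176), and 3 were found in both. Beyond the 3' end of gcy-3, a receptor guanylyl cyclase gene, 4 far members reached 239 (100.2 and 124), and 1 was found in both. The remaining clusters of 3 or 4 members lay at zyg-11, at idpb-4 and mak-1, at C46C2.7 and wnk-1, at ret-1 and npr-13, at cutl-21, at gbb-1 and aakg-3, at W05H9.4 and at ftt-2. At zyg-11, idpb-4 with mak-1, and cutl-21 no member was found in both samples.

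Repeated sequence was more common at intergenic than at promoter summits. A window was called repeated when at least 50% of its 50-base words occurred more than once in the genome. This held for 31 of 465 intergenic peaks (6.67%, 95% interval 4.57 to 9.33%), against 7.62% of all main peaks. At promoters it was 11 of 560 (1.96%, odds ratio 3.56, 1.72 to 7.95, exact adjusted p = 0.00118), and in gene bodies 18 of 327 (5.50%, odds ratio 1.23, 0.651 to 2.37, exact adjusted p = 0.551). Without windows that share 20 bases with another peak, 1 of 392 intergenic and 1 of 509 promoter windows was repeated (odds ratio 1.30, exact adjusted p = 1). Repeated windows tend to share 20 bases with another peak, so leaving those out takes away nearly all of them in both classes. This comparison therefore cannot show whether the difference from promoters depends on shared sequence. Far (7.62%) against near (5.88%) gave an odds ratio of 1.32 (0.594 to 2.94, exact adjusted p = 0.551). Of 100 bp tiles of eligible sequence, 13.0% were repeated in far and 7.87% in near sequence, with no test of the difference. All these shares of peaks are for the main list, from which the authors had taken out 53 intergenic peaks at or above the score minimum. Of those, 48 were far and 32 had a repeated summit sequence. Sequence that occurs more than once limits where reads can be placed, and its part in these signals was not tested.

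Shared sequence of 20 bases linked 44 of 210 far peaks (21.0%, 95% interval 15.7 to 27.1%) and 29 of 255 near peaks (11.4%, 7.75 to 15.9%) to another main-list peak. It linked 51 of 560 promoter peaks (9.11%) and 43 of 327 gene-body peaks (13.1%). These shares and the family values below are descriptions, with no test, since the families were found in the same windows.

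Family A was the largest and held some of the strongest far peaks. Its windows repeat a unit with GAANNTTC pairs, shown above for srv-14 and fbxa-190, and its most shared 20 bases recur mostly 40 bp apart (91 of 170 spacings within 200 bp). The 13 intergenic members (8 far, 5 near) had a median signal of 207, from 70.3 nearest ZK1086.2 to 721 nearest srv-14, and 11 were found in both samples and the other 2 in replicate 2. In the samples the members ranged from 15.6 to 278 in replicate 1 and from 57.2 to 440 in replicate 2. The median ratio of replicate 2 to replicate 1 was 1.60, against 1.24 over all intergenic peaks. Counting promoter and gene-body peaks, 27 main-list peaks belonged to the family. The 20 bases occurred 250 times in the genome at 65 loci, and 14 loci had a main-list peak within 250 bp. Peaks were at 10 of 18 loci with 5 or more copies and at 0 of 20 loci with a single copy. Of the 13 windows 11 were repeated sequence.

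Family C was smaller and more uniform. All 6 intergenic members were found in both samples, with signals from 184 nearest imb-3, an importin gene, to 433 nearest K07D4.2, and a median of 335. In replicate 1 they ranged from 92.3 to 195 and in replicate 2 from 81.7 to 248. Its 20 bases occurred 8 times in the genome, each at a locus of its own, and 6 of these 8 loci had a main-list peak. Family F had 4 members, 2 of them nearest K08F11.1, with signals from 158 to 503 and all found in both samples, and 4 of its 8 loci had a peak.

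Families B, D and E were weaker. All 9 members of family B were far, with a median signal of 111 and a range of 76.7 to 154, and 2 were found in both samples, nearest nhr-277 (154, with 80.1 and 75.2) and Y51H4A.25 (123, with 63.9 and 58.5). Every one held GGCNNAGTG. None held GTTCGANNC, the letters searched for the B box, the other internal promoter element of tRNA genes. The window nearest nhr-277, shown above, holds GTTCAATTC, which differs from those letters in a single base, and its summit lay inside an annotated pseudogene. Other forms of the B box were not searched, so its absence is not shown. All lay more than 250 bp from an annotated tRNA gene by the rule that chose them, and 7 of the 39 loci of their shared 20 bases had a peak. Family D, a tandem repeat with its copies most often 15 bp apart (310 of 657 spacings), had 6 members with a median signal of 93.8, none found in both. Its 20 bases occurred 811 times at 114 loci, of which 8 had a peak. Family E had 5 members with a median of 80.9, none found in both, and 5 of 81 loci with a peak.

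**Figure D4:**
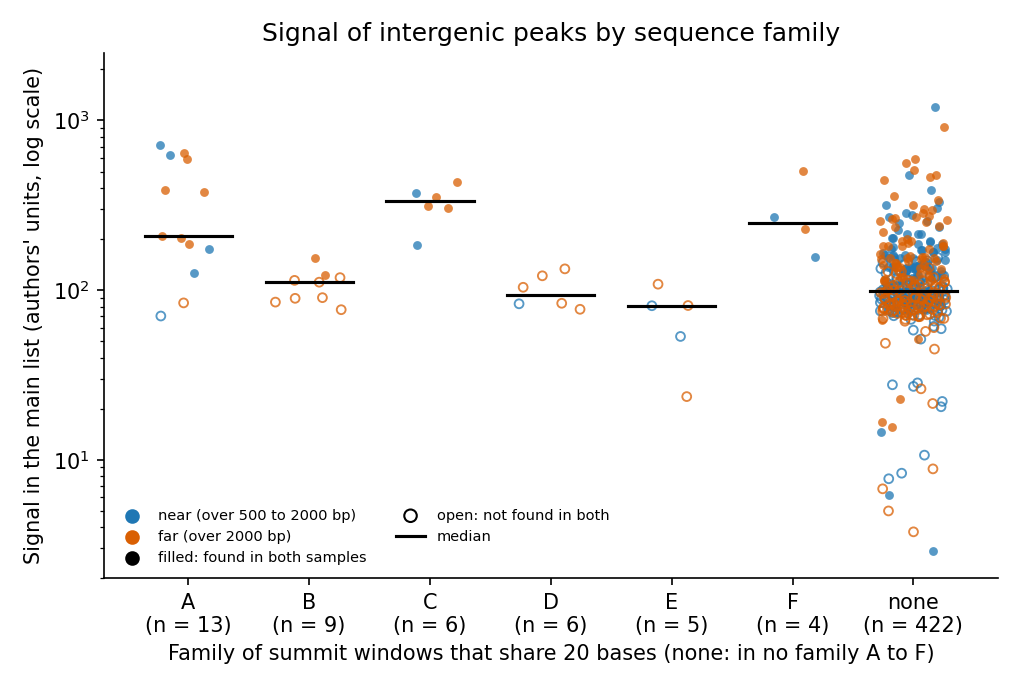
Signal in the main list (vertical axis, authors' units, log scale) of each intergenic peak, by sequence family (horizontal axis, with n); filled circles were found in both samples, open circles were not, colours give near and far, and lines are medians. Families A, C and F hold mostly strong peaks found in both, with medians of 207, 335 and 249, and families B, D and E mostly weaker ones.

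Motif letters at intergenic summits were set beside those in 100 bp tiles of the eligible sequence, both strands searched, as a description. GAANNTTC was in 30 of 255 near windows (11.8%, 95% interval 8.08 to 16.4%) and 34 of 210 far windows (16.2%, 11.5 to 21.9%), against 7.16% and 7.32% of tiles. Promoter windows held it in 10.5% and gene-body windows in 12.5%. Far peaks with it had a median signal of 172 and those without it 99.2. For near peaks the medians were 112 and 99.1, at promoters 107 and 97.8, and in gene bodies 100.2 and 89.8. The 34 far windows include the 8 far members of family A and the 4 of family C, whose intergenic members had medians of 207 and 335. These medians were not taken again without the families. Without every window that shares 20 bases with another peak, the shares were 22 of 226 near (9.73%) and 19 of 166 far (11.4%).

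CACGTG was in 26 near (10.2%) and 17 far windows (8.10%), against 1.40% and 1.32% of tiles, with 5.54% of promoter and 12.5% of gene-body windows. Intergenic peaks with it had a median signal of 129, those without it 97.4. The GATA site CTTATC was in 10.2% of near and 8.10% of far windows, against 3.81% and 3.32% of tiles, in 3.57% of promoter windows and in 7.65% of gene-body windows. TGATAA, which overlaps it in part, was in 16.1% of near and 12.9% of far windows, against 9.76% and 8.74% of tiles, 7.14% of promoter and 7.65% of gene-body windows. The 9-base CTGCGTCTC was in 11 near (4.31%) and 8 far windows (3.81%), against 0.521% and 0.417% of tiles, 5.71% of promoter and 3.36% of gene-body windows. Of its 8 far windows 7 belonged to peaks found in both samples, against 40.0% of all far peaks, and of its 11 near windows 5, against 32.5% of all near peaks. The far peaks with it were also stronger, with a median signal of 188 against 104 without it (near 110 and 98.9). Far windows with GAANNTTC, CACGTG or CTTATC belonged to peaks found in both in 64.7% of cases each. Being found in both went with strength, and the part of strength in these shares was not tested. At promoters it was 18 of 32 and in gene bodies 6 of 11.

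The A box letters GGCNNAGTG were in 3 near (1.18%) and 12 far windows (5.71%), against 0.445% and 0.455% of tiles, and 9 of the 12 belong to family B. GTAAACA, the site of forkhead factors, was in 6 near (2.35%) and 4 far windows (1.90%), against 1.38% and 1.31% of tiles. CCACGTCA, a core of sites in genes of the unfolded protein response, was in 3 near windows (1.18%, against 0.216% of tiles) and no far window. The B box letters GTTCGANNC were in 4 near (1.57%, against 0.704% of tiles) and 1 far window (0.476%, against 0.690%), while 106 of 353 windows near small RNA genes held them.

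The letters TATAAA and TAATTA were rarer at the summits than in the tiles. TATAAA, the TATA box, was in 6.27% of near and 4.76% of far windows, against 12.9% and 12.1% of tiles. TAATTA, the core of homeodomain sites, was in 4 near and 1 far window, against 5.34% and 5.00% of tiles. Base composition also differed between summits and tiles. G and C made up a median of 44% of near and 45% of far windows, against 33.98% and 34.38% of the bases in the tiles. The part of base composition in the motif counts, higher or lower, was not tested.

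**Figure D5:**
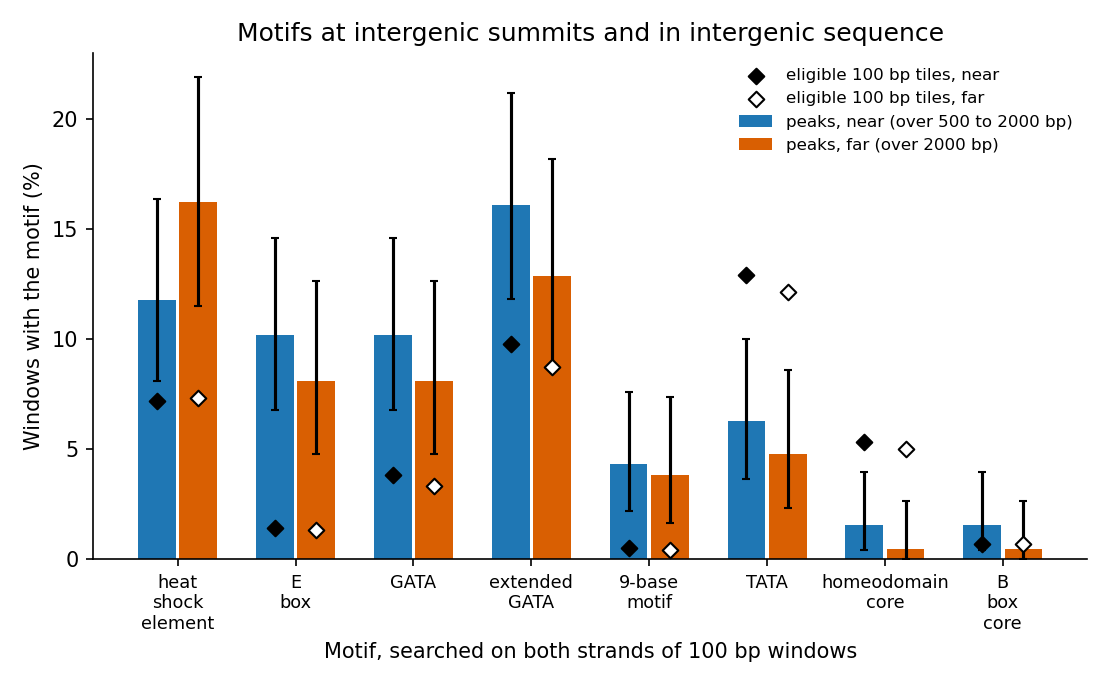
Share of 100 bp windows with each motif (vertical axis, %), for near and far intergenic peaks (bars, with exact 95% Clopper-Pearson intervals) and for 100 bp tiles of the same kind of sequence (diamonds), by motif (horizontal axis). The heat shock element, E box, GATA sites and 9-base element have both bars above their tiles, and the TATA box and homeodomain core have bars below them. The B box core has its near bar above and its far bar below.

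The limits of the rule ran between peaks of similar distance. Just beyond 500 bp of a 5' end lay peaks nearest vps-39 (504 bp, signal 161), Y62F5A.12 (508 bp, 171) and sms-3 (511 bp, 166). Just within it, and so not counted, were those nearest T21B10.3 (499 bp, 117), F46H5.2 (495 bp, 81.8) and rps-4 (494 bp, 2.80). At the 2000 bp split the closest far peaks were nearest sor-3 (2003 bp, 118), sup-26 (2023 bp, 189) and hpo-32 (2033 bp, 76.7), and the closest near peaks nearest fezf-1 (1997 bp, 125), F08B12.4 (1994 bp, 95.9) and hif-1 (1991 bp, 148.6). The intergenic peaks closest to a small RNA gene were nearest xol-1 (282 bp), W06H8.6 (300 bp) and T04D3.8 (424 bp), and those left out for it nearest mnk-1 (230 bp, signal 171), lin-45 (229 bp, 100.9) and col-137 (178 bp, 120).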

How the data were processed

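Per the labels and the notes deposited with the lists, ChIP-seq reads of 2 samples were aligned to ce11, and aligner and peak caller are not given in the sources used here. The signal of each peak was set by the authors, and its score, also deposited, is a scaled form of the IDR. The ranked lists deposited by the authors give the −log10 of the global IDR. The main list holds peaks at or above a score of 830, less some the authors took out, and 4 columns with values of other peak lists were not used. Depth is unknown, so intervals cover counting of peaks only.

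Summits were placed on Ensembl WBcel235 release 115 (ce11), positions counting from 1. For signal per sample, a main peak took the highest overlapping value of that sample's ranked list. Fisher's exact tests, odds ratios and exact 95% intervals were computed with scipy 1.17.1, numpy 2.4.6 and pandas 2.3.3 in Python 3.11.15, with 0.05 as the threshold, after the tests were tested on simulated data. Peaks named in full were the 15 far and 10 near of highest signal, members of clusters of 3 or more, 3 peaks on each side of each limit and examples from gene lists; other names were chosen after their values were seen. Members, lists and motifs were chosen with earlier results of these data known. Alternatives were other lists, limits, windows and overlaps, and 3 chosen after seeing the data.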

Additional observations from a re-analysis of the deposited data

Results flagged for a closer look

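Peaks outside the main list carried signal in intergenic sequence. The authors took 59 of 1764 peaks at or above the score minimum out of the main list, and 53 of these 59 met the rule for intergenic peaks away from small RNA genes. Of the 53, 48 were far and 32 had a repeated summit sequence, and 18 lay on chromosome V. Their median signal was 164, against 101.1 for the intergenic peaks that were kept. The highest, at chrX:15810936-15811187 nearest Y7A5A.7, had a signal of 2606, with 1345 in replicate 1 and 1489 in replicate 2, above the 1196 of the strongest kept intergenic peak. No control sample was used here, so these values are given without a comparison to one, and the reason for their removal is not given in the sources used here.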

How the results depend on the processing

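Of 170 values under alternatives, 148 kept their direction and side of the threshold or stayed close to the reported value. With the list of a single sample (without replicate 1 or without replicate 2), the number of intergenic peaks was 220 to 290 and the far share 44.5 to 50%. There the odds ratio of signal against promoters was 0.908 to 0.971 and of signal for far against near 1.20 to 1.87, the latter passing in replicate 2 (exact adjusted p = 0.0212). The X ratio was 1.55 to 2.37 against gene bodies and 1.78 to 1.79 for far against near. At a global IDR of 0.001, 203 intergenic peaks were left. Odds ratios were then 0.901 against promoters and 1.16 against gene bodies for being found in both samples, 0.807 and 1.42 for signal, 1.78 against gene bodies and 2.11 for far against near on the X, and 0.973 for repeated sequence against gene bodies. With an overlap of 50%, the ratio for being found in both against promoters was 0.961. The cause was not tested. The far share was 58.0% with 1000 bp from 5' ends and 28.0% with the split at 3000 bp, which the limits themselves set. No paired analysis was possible because there is 1 group. Counting 1 summit per stretch of overlapping peaks (441 intergenic peaks), or leaving out signals under 10, changed no call or direction. Leaving out shared 20-base sequence changed none for being found in both, signal or the X, but left 5 repeated windows among the intergenic and gene-body peaks, with odds ratios for repeated sequence of 1.30 against promoters, 0.179 against gene bodies and 0 for far against near. These 3 alternatives were chosen after seeing the data. Depth is unknown, so a peak missing from a sample's list cannot be told apart from one that is absent there.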
